A study of Canis lupus familiaris with 18 samples.

Results

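Genes that mark homeostatic microglia, the resident macrophages of the brain in their resting state, were examined in canine high grade oligodendroglioma (HGO). The 9 genes named were CX3CR1, P2RY12, P2RY13, TMEM119, GPR34, SALL1, TREM2, OLFML3 and SLC2A5, and rows were chosen by symbol from the deposited table of raw counts. By symbol, 7 of the 9 genes had a row among the 29993 genes of the table. P2RY13 and SLC2A5 were not listed under their symbols and have no values here. The RNA came from surgically resected tumors that were fixed in formalin and embedded in paraffin, from 11 French bulldogs and from 4 boxers and 3 Boston terriers, which formed the comparison group. All tumors were labelled as prosencephalic HGO and were taken before trial treatment, and the ages of the dogs were not used in any comparison. Each library is bulk tissue, so the 18 libraries hold tumor cells, microglia, other immune cells, vessels and brain tissue in unknown proportions. One library, French bulldog 6 (15-021-1B), is given apart from the other 17 because it was selected on measured values, a low CX3CR1 count and a high CD163 count. Its levels of these genes, set against the other libraries, are therefore a description with no test. It enters the breed comparison of all 18 libraries, which is also given without it.

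Microglia survey the brain through receptors that sense signals from neurons and from damaged cells. In the resting state they make a typical set of receptors and transcription factors, which depends on colony-stimulating factor 1 receptor signals and on transforming growth factor beta, and they lower several of these genes when they become reactive. Macrophages that enter the brain from the blood share many genes with microglia but make little P2RY12, TMEM119 or SALL1. In glioma, microglia and blood-derived macrophages make up much of the immune infiltrate.

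Between 8212452 and 13169880 reads were counted on genes per library, and a floor of 3 counts, below which no level was read, corresponded to 0.223 to 0.351 CPM. CPM are the usual depth-normalized counts, scaled here by TMM factors. All 7 microglia genes with a row were among the 16495 genes kept by the filter on low counts. French bulldogs 2 and 8 carry the same case number in their library names and may be 1 dog. The paper lists both with the same age, sex and tumor location. Their libraries were the most alike of all French bulldog pairs, with a chi-square of 9.88 per gene against at least 35.1 in the other pairs, where 1 would be sampling noise, and they were counted as 2 libraries except where stated. The labels do not say how the dogs relate beyond breed, so p-values measure the spread between these libraries.

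Of the receptors, CX3CR1 (ENSCAFG00000031104) is the receptor for fractalkine, the chemokine that neurons make. Its level ran from 11.6 to 55.9 CPM in the 10 French bulldogs other than French bulldog 6, with a median of 23.9 CPM. In the boxers it was 23.6, 34.0, 36.2 and 31.2 CPM, and in the Boston terriers it was 26.1, 14.8 and 24.6 CPM. The lowest and the highest of these 17 libraries were both French bulldogs, numbers 4 and 1, and the 7 comparison dogs lay between them. The spread across the 17 libraries was 4.84-fold.

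P2RY12 (ENSCAFG00000008534) is the receptor for adenosine diphosphate through which microglia extend their processes toward injury. It ran from 4.22 to 27.5 CPM in the 10 French bulldogs, with a median of 8.33 CPM. The boxers had 17.0, 16.5, 15.7 and 11.7 CPM and the Boston terriers had 13.3, 5.69 and 11.4 CPM. French bulldogs 1 and 9, at 27.5 and 27.4 CPM, stood above all comparison dogs, whereas the other 8 French bulldogs had at most 10.6 CPM. GPR34 (ENSCAFG00000014405), a receptor for lysophosphatidylserine, ran from 5.22 to 25.5 CPM in the 10 French bulldogs with a median of 12.2 CPM. It was 9.12, 13.3, 14.5 and 8.97 CPM in the boxers and 9.13, 4.43 and 11.7 CPM in the Boston terriers. French bulldogs 1, 9 and 11 had the highest GPR34 and also the highest CX3CR1 of the 17 libraries.

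TREM2 (ENSCAFG00000001586), a lipid-sensing receptor that signals through the adaptor TYROBP, ran from 2.89 to 13.1 CPM in the 10 French bulldogs with a median of 4.89 CPM. The boxers had 2.00, 4.84, 7.72 and 4.65 CPM and the Boston terriers had 4.61, 3.43 and 6.38 CPM. French bulldogs 1 and 11, at 13.1 and 12.4 CPM, were above the remaining 15 libraries, none of which exceeded 7.72 CPM. TREM2 is also made by other macrophages, so its level is not specific to microglia.

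TMEM119 (ENSCAFG00000032030), a membrane protein used to tell microglia from other macrophages, was the least counted of the 7 genes, with 3 to 68 counts in the 17 libraries. It ran from 0.305 to 2.70 CPM in the 10 French bulldogs, with a median of 0.926 CPM. The boxers had 0.701, 3.66, 6.48 and 2.59 CPM and the Boston terriers had 1.60, 1.34 and 1.08 CPM. The highest values were in boxers 4 and 3, and the lowest value, of 3 counts in French bulldog 8, was at the limit of the depth. Its spread across the 17 libraries was 21.2-fold, the widest of the 7 genes.

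SALL1 (ENSCAFG00000009755) is a zinc finger transcription factor that holds microglia in their resident identity, and neural progenitors make it too. It ran from 27.1 to 85.1 CPM in the 10 French bulldogs with a median of 43.9 CPM, from 38.8 to 61.9 CPM in the boxers and from 34.8 to 76.2 CPM in the Boston terriers. Its spread of 3.14-fold across the 17 libraries was the narrowest of the 7 genes. OLFML3 (ENSCAFG00000009334), a secreted olfactomedin-like protein, ran from 2.11 to 17.6 CPM in the 10 French bulldogs, from 5.34 to 11.5 CPM in the boxers and from 3.26 to 6.71 CPM in the Boston terriers. Its 3 highest values were in French bulldogs 11, 3 and 1, at 17.6, 17.3 and 12.7 CPM.

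**Figure D1:**
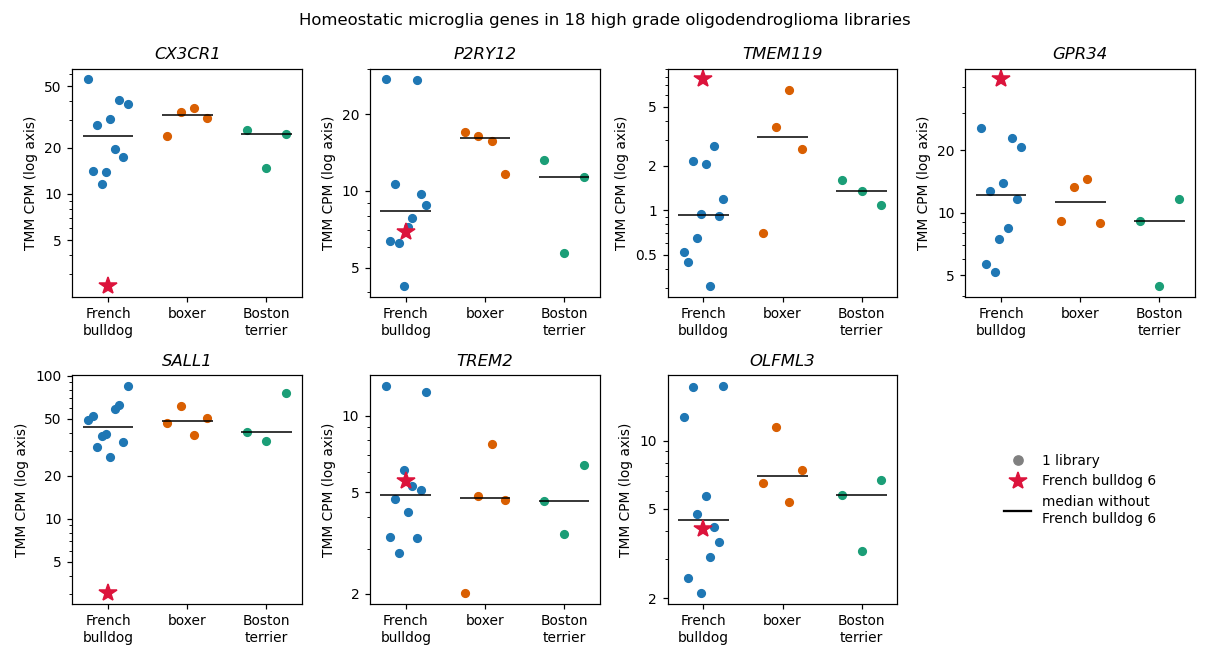
Level of each of the 7 microglia genes in each library, as TMM-normalized CPM on log axes, by breed. Points are single libraries, bars are medians without French bulldog 6, and the star is French bulldog 6, which lies lowest for CX3CR1 (2.50 CPM) and SALL1 (3.02 CPM) and highest for TMEM119 (7.71 CPM) and GPR34 (44.0 CPM).

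The study compared HGO of French bulldogs with HGO of other breeds to find expression that differs with breed. None of the 7 microglia genes differed between French bulldogs and the comparison group by edgeR's quasi-likelihood F test at an adjusted p-value under 0.05, against a background of 1 of 16495 genes, or 0.00606%, and of 3 of 16403 genes, or 0.0183%, when French bulldog 6 was left out. None of the 7 had an unadjusted p-value under 0.05 in edgeR, which 10.6% of all genes had, and 10.8% without French bulldog 6. The DESeq2 Wald test also called none of the 7 genes, and it called 58 of 22431 genes, or 0.259%. In bulk tissue, fewer microglia and less RNA per microglial cell cannot be told apart.

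The directions were mixed. With all 18 libraries, 3 of the 7 genes had higher and 4 had lower estimates in French bulldogs, with a median log2 fold change of -0.13 against 0.04 over all genes tested. Without French bulldog 6, 4 were higher and 3 lower, with a median of 0.03 against 0.05 over all genes. CX3CR1 had 24.8 ± 15.6 CPM (SD, n = 11) in French bulldogs and 27.2 ± 7.29 CPM (SD, n = 7) in the comparison group. The log2 ratio of French bulldogs to the others was -0.13 (SE, standard error, 0.40, edgeR adjusted p = 0.937). Without French bulldog 6 it was 0.03 (SE 0.31), and the 95% interval of the ratio of French bulldogs to the comparison group was 0.648 to 1.61. P2RY12 had a log2 fold change of -0.22 with all libraries and -0.12 without French bulldog 6, with a ratio between 0.532 and 1.58 in the latter. These intervals leave room for a difference of over 1.5-fold in either direction.

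GPR34 had the largest positive estimate, with 16.2 ± 11.5 CPM (SD, n = 11) in French bulldogs, and 10.2 ± 3.36 CPM (SD, n = 7) in the comparison group. Its log2 ratio was 0.67 (SE 0.39, edgeR adjusted p = 0.545), and 0.44 (SE 0.34, edgeR adjusted p = 0.667) without French bulldog 6. For TREM2 the log2 ratio was 0.32 (SE 0.34, edgeR adjusted p = 0.767), and for OLFML3 it was 0.08 (SE 0.44, edgeR adjusted p = 0.971). SALL1 had -0.19 (SE 0.37, edgeR adjusted p = 0.896) and -0.03 without French bulldog 6, when the 95% interval of its ratio, 0.697 to 1.37, was the narrowest of the 7 genes.

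TMEM119 was the gene for which French bulldog 6 mattered most. Its level was 1.78 ± 2.12 CPM (SD, n = 11) in French bulldogs and 2.49 ± 2.03 CPM (SD, n = 7) in the comparison group. The log2 ratio was -0.48 (SE 0.59, edgeR adjusted p = 0.799). Without French bulldog 6 this was -1.03 (SE 0.50, edgeR unadjusted p = 0.0531 and adjusted p = 0.467), with a ratio between 0.238 and 1.01. This estimate also rested on the boxers. It was -0.92 against the boxers alone and 0.45 against the Boston terriers alone, and without boxer 4 it was 0.0061, each with French bulldog 6 included.

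**Figure D2:**
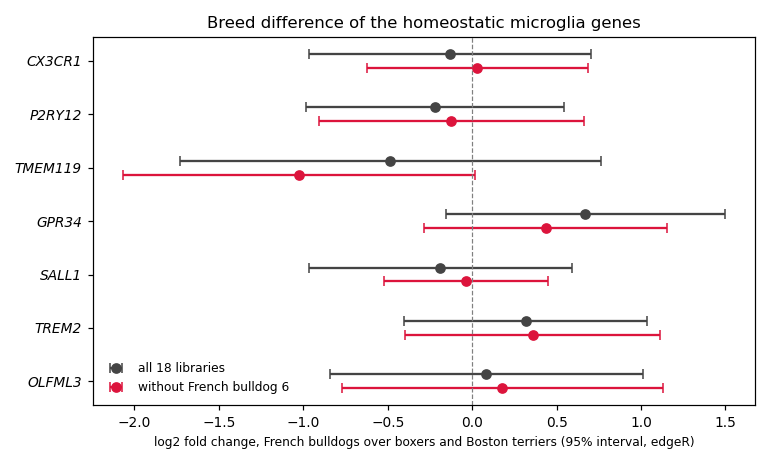
Log2 fold change of each of the 7 microglia genes, French bulldogs over boxers and Boston terriers, with its 95% interval from edgeR, for all 18 libraries (gray) and without French bulldog 6 (red). Every interval includes 0, and the TMEM119 estimate moves from -0.48 to -1.03.

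Genes that act with the microglia genes were taken from lists that were chosen with earlier results of these data known. Of the ligands and growth factors, 7 genes were tested, including CX3CL1, the ligand of CX3CR1, and CSF1 and IL34, the ligands of CSF1R. No gene passed an adjusted p-value of 0.05 in edgeR, the smallest being 0.628. The log2 ratio was -0.33 (SE 0.41) for CX3CL1 and -0.08 (SE 0.34) for IL34. Of 13 receptors and adaptors, 7 transcription factors and 17 other microglia-enriched genes, none passed either. The median log2 fold changes of these 3 lists were 0.56, 0.36 and 1.09 with all libraries and -0.06, 0.07 and 0.02 without French bulldog 6. For example, C1QA, a subunit of complement C1q, had a log2 fold change of 2.35 with all libraries and 0.46 without French bulldog 6, and for SPI1, which encodes the myeloid transcription factor PU.1, the values were 2.01 and 0.07. None of the 16 macrophage and monocyte markers tested passed, and their median log2 fold change was 1.73 with all libraries and 0.17 without French bulldog 6. Without French bulldog 6, the list of macrophage markers summed to 961 to 5850 CPM in French bulldogs and 2500 to 3890 CPM in the comparison group, and VCAN, a proteoglycan gene of that list which oligodendrocyte progenitors also express, alone ran from 831 to 5555 CPM in the 17 libraries.

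Whether the microglia genes vary together between tumors was examined in the 17 libraries without French bulldog 6. Each gene that passed the filter was correlated with CX3CR1 on log2 CPM, with 100000 shuffles of the libraries and adjustment over 16494 genes. All 6 other microglia genes had a positive Spearman correlation with CX3CR1, with a median of 0.610 against -0.0392 over all genes. By an adjusted p-value under 0.05 and a positive sign, 2 of the 6 were called, against 297 of all genes, or 1.80%.

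GPR34 had the highest correlation with CX3CR1 of the 6 genes over the 17 libraries. Its Spearman correlation was 0.904 (permutation test, two-sided, p = 1e-05, the smallest that the shuffles can give, adjusted p = 0.00750) and its Pearson correlation was 0.900 (permutation p = 1e-05, adjusted p = 0.00660). With the 2 libraries farthest from the median CX3CR1 left out, French bulldogs 1 and 4, Pearson's r was 0.850 (permutation p = 3e-05, adjusted p = 0.0412). The correlation of GPR34 was called whichever 1 of the 17 libraries was left out, between 0.885 and 0.953. It was 0.976 in the 10 French bulldogs (adjusted permutation p = 0.160) and 0.750 in the 7 comparison dogs (exact permutation p = 0.0663, adjusted p = 0.995).

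P2RY12 had a Spearman correlation of 0.755 with CX3CR1 (permutation p = 0.000800, adjusted p = 0.0380) and a Pearson correlation of 0.804 (permutation p = 0.000130, adjusted p = 0.0249). Its call depended on the libraries. It was lost when any 1 of 9 of the 17 libraries was left out, with a highest adjusted p of 0.0949, namely French bulldogs 1, 2, 4, 5, 8 and 9, boxers 3 and 4, and Boston terrier 6. With the mean of French bulldogs 2 and 8 as 1 point the adjusted p-value was 0.0747. With French bulldogs 1 and 4 left out the call was also lost, with a Pearson's r of 0.736 (permutation p = 0.00166, adjusted p = 0.0870) and a Spearman correlation of 0.657 (adjusted permutation p = 0.136). The correlation was 0.830 in the 10 French bulldogs (adjusted permutation p = 0.225) and 0.393 in the 7 comparison dogs (adjusted exact permutation p = 0.995).

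OLFML3, with a Spearman correlation of 0.674 (permutation p = 0.00371, adjusted p = 0.0724), and TMEM119, with 0.547 (permutation p = 0.0254, adjusted p = 0.191), were not called. Their Pearson correlations were 0.700 (permutation p = 0.00182) and 0.470 (permutation p = 0.0567). French bulldog 1, with the highest CX3CR1 of all, had only 7 counts of TMEM119. Without it the TMEM119 correlation was 0.782 (adjusted permutation p = 0.0349), and without French bulldog 9 the OLFML3 correlation was 0.791 (adjusted permutation p = 0.0330). TREM2 had a Spearman correlation of 0.395 and a Pearson correlation of 0.533 (permutation p = 0.119 and 0.0272), and SALL1 had 0.353 and 0.320 (permutation p = 0.165 and 0.210). For TREM2, Pearson's r was 0.284 (permutation p = 0.314) without French bulldogs 1 and 4. In the 7 comparison dogs the Spearman correlation was 0.893 for TMEM119 (exact permutation p = 0.0123) and 0.750 for TREM2 (exact permutation p = 0.0663), with an adjusted p = 0.995 for each, and in the 10 French bulldogs it was 0.370 for both (adjusted permutation p = 0.674). The difference between the groups was not tested.

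**Figure D3:**
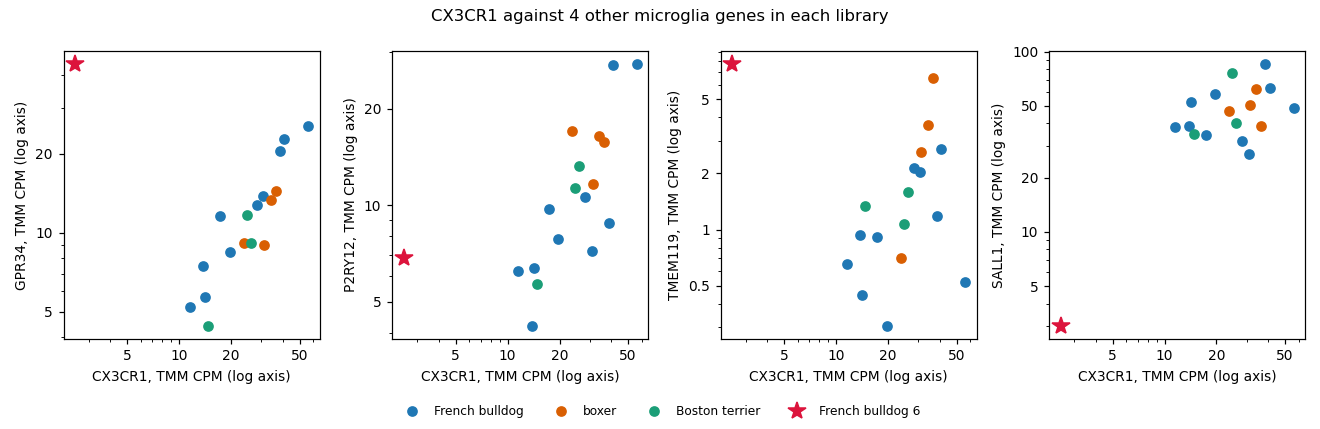
CX3CR1 against GPR34, P2RY12, TMEM119 and SALL1, each in TMM-normalized CPM on log axes, with 1 point per library and a star for French bulldog 6. GPR34 rises with CX3CR1 over the 17 libraries (Spearman correlation 0.904), SALL1 less so (0.353), and French bulldog 6 lies off the GPR34 relation, with the lowest CX3CR1 and the highest GPR34.

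Across all 21 pairs of the 7 genes, the median Spearman correlation was 0.353 and the range was -0.0637 to 0.904 (17 libraries, described without a test). These points share a library, its depth and its scaling. CX3CR1, P2RY12, GPR34 and OLFML3 held the 6 pairs among themselves between 0.554 and 0.904. TREM2 was highest with GPR34, at 0.466, and lowest with TMEM119, at 0.0196. SALL1 had at most 0.353 with any of the other 6 genes, and the only negative pair was SALL1 with TMEM119. The mean correlation with the other 6 genes was 0.605 for CX3CR1, 0.555 for GPR34, 0.468 for P2RY12, 0.449 for OLFML3, 0.271 for TMEM119, 0.259 for TREM2 and 0.222 for SALL1.

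**Figure D4:**
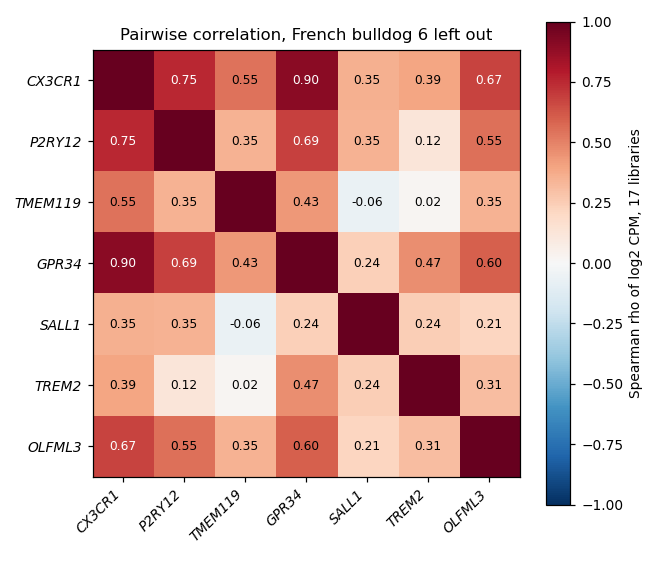
Spearman correlation of log2 CPM for each pair of the 7 microglia genes over 17 libraries, French bulldog 6 left out. Values near 1 are dark red, and the block of CX3CR1, P2RY12, GPR34 and OLFML3 runs from 0.554 to 0.904 whereas SALL1 stays at or below 0.353.

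The 10 other genes whose pattern was most like that of the 7 microglia genes were ranked by their mean Spearman correlation with the 7 over the 17 libraries. They were INPP5D (0.674), ST14 (0.670), GAL3ST4 (0.666), FCMR (0.641), ITGB5 (0.636), PLCB2 (0.636), CSF1R (0.632), KCNQ1 (0.622), SAMSN1 (0.621) and KCNN4 (0.619). INPP5D encodes the phosphatase SHIP1, which restrains signaling from immune receptors, CSF1R is the receptor on which microglia depend for survival, and KCNN4 is a calcium-activated potassium channel. CSF1R had a correlation of 0.941 with CX3CR1 and INPP5D had 0.939. CX3CR1 was 1 of the 7 genes used for this ranking, so these high values follow in part from the selection and no p-value is given here.

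By list, the share of genes called for a positive correlation with CX3CR1 was read against the 1.80% of all genes. For receptors and adaptors it was 6 of 13 genes, with CSF1R and INPP5D joined by ENTPD1 (0.782), which breaks down extracellular nucleotides, MERTK (0.760), TYROBP (0.750) and TGFBR2 (0.726). For other microglia-enriched genes it was 8 of 17, among them ADORA3 (0.907), an adenosine receptor, and C1QA (0.846). For ligands it was 3 of 7, GAS6 (0.860), APOE (0.860) and IL34 (0.726), while CX3CL1 itself had 0.201 (adjusted permutation p = 0.711). For transcription factors it was 1 of 7, IRF8 (0.922), and for disease-associated microglia genes it was 1 of 10, CTSZ (0.726). None of the 16 macrophage and monocyte markers was called, although all 16 correlations were positive, with a median of 0.423 and 0.417 for CD163. The calls nearest the threshold, IL34, TGFBR2 and CTSZ, had adjusted permutation p-values of 0.0496, 0.0483 and 0.0461, and the number of genes called over the whole table, 297, ran from 82 to 329 when 1 library was left out, so these counts depend on the libraries. The lists were not tested against each other, and they were chosen with earlier results of these data known, so the shares are a description.

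Single markers of other cell types were also called with CX3CR1 over the 17 libraries, while most were not. PDGFRA, a growth factor receptor of oligodendrocyte progenitors, ran from 163 to 4975 CPM and fell with CX3CR1, with a Spearman correlation of -0.858 (adjusted permutation p = 0.0100). GFAP, an intermediate filament of astrocytes, had 0.833 (adjusted permutation p = 0.0108), and MBP, a myelin protein, had 0.760 (adjusted permutation p = 0.0345). Of the 8 oligodendrocyte lineage markers tested 1 was called positive and 1 negative, of the 5 astrocyte markers 1 was called, and of the 6 neuron markers and the 5 endothelial and mural markers none was called, the latter with a median correlation of 0.650. Over all 16494 genes, 297 were called positive and 223 negative. The part of tumor cell content in the shared variation of the microglia genes was not tested.

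French bulldog 6 had a different pattern. Its CX3CR1 was 24 counts or 2.50 CPM, 0.0959 times the median of the other 17 libraries, and its SALL1 was 29 counts or 3.02 CPM, 0.0648 times the median. Both were below all other libraries. GPR34, at 422 counts or 44.0 CPM, was 3.79 times the median, and TMEM119, at 74 counts or 7.71 CPM, was 6.48 times the median, and both were above all other libraries. P2RY12 (6.87 CPM), TREM2 (5.52 CPM) and OLFML3 (4.06 CPM) lay within the range of the others. Over all genes tested, French bulldog 6 was above all other libraries for 20.8% and below all for 29.9%. Of the 7 microglia genes, 2 were above and 2 below all others. CX3CR1, on which the library was selected, is among those below.

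Many other immune genes of French bulldog 6 were high, while single genes of the same lists were low. CD163, a scavenger receptor of macrophages, had 27819 counts or 2897 CPM against 2.45 to 40.6 CPM in the 17 libraries. Of the 16 macrophage and monocyte markers 12 were above all other libraries, as were 15 of 17 other microglia-enriched genes, 11 of 13 receptors and adaptors and 9 of 10 disease-associated microglia genes, where the background is 20.8%. CD163, on which the library was selected, is among the 12. Of the 7 transcription factors 4 were above and 1 below all others, and of the 7 ligands and growth factors none was above and 2 were below. The shares below, 14.3% and 28.6%, did not exceed the 29.9% of all genes that were below all others in this library. Of the other microglia-enriched genes 1 was below all others, ADGRG1, with 7 counts and 0.00487 times the median, and the transcription factor SALL3 was at 0 counts. Neither gene rose with CX3CR1 over the 17 libraries, with Spearman correlations of -0.262 for ADGRG1 and -0.363 for SALL3. Their medians there were 149.7 and 38.6 CPM, and which cells made them was not tested. GAS6 (0.252 times the median), CD9 (0.354 times) and VCAN (0.105 times) were also lowest in this library. CSF1R was at 490.5 CPM against 11.7 to 74.2 CPM, and TYROBP at 115 CPM against 1.58 to 8.73 CPM. CX3CL1, at 1.87 CPM, was below the 20.4 to 75.2 CPM of the others. The label of oligodendroglioma did not match the lineage genes of this library. All 5 astrocyte and all 6 neuron markers and 7 of 8 oligodendrocyte lineage markers were below all other libraries, where the background is 29.9%. OLIG2 was at 0 counts, and the oligodendrocyte lineage list summed to 62.9 CPM against 2110 to 8420 CPM. T cell genes were present, with 214 counts of CD3E against at most 6 in the others. The part of this cell content in the levels of the microglia genes was not tested.

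Set against CSF1R, a gene of microglia and macrophages alike that was picked for this purpose after its values were seen, 6 of the 7 microglia genes of French bulldog 6 were below all other libraries. On the same measure 87.5% of all other genes were below, since CSF1R itself was high in this library, so the count is near the background. CX3CR1 was 0.510% of the CSF1R level in the same library, whereas it was 51.9% to 125% in the other 17, with a median of 74.6%. GPR34, although highest in CPM, was 8.96% of CSF1R against 21.2% to 53.6%. TMEM119 was at 1.57%, within the 0.835% to 13.2% of the others. CD163 was 591% of CSF1R against 15.3% to 177%, and like CX3CR1 it is a gene on which the library was selected. These percentages compare CPM of genes of unequal length, so they can be read between libraries and not between genes.

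The same measure was set out by breed without French bulldog 6. The median CX3CR1 level was 74.3% of CSF1R in the 10 French bulldogs and 74.8% in the comparison group, with ranges of 51.9% to 125% and 73.8% to 88.4%. For GPR34 the medians were 41.2% and 29.5%, and for TMEM119 they were 4.02% and 6.14%, with overlapping ranges. The medians were 43.1% and 34.5% for P2RY12, 21.5% and 14.9% for TREM2, 19.9% and 18.5% for OLFML3 and 131.5% and 134.3% for SALL1, also with overlapping ranges. No test was made of these ratios.

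**Figure D5:**
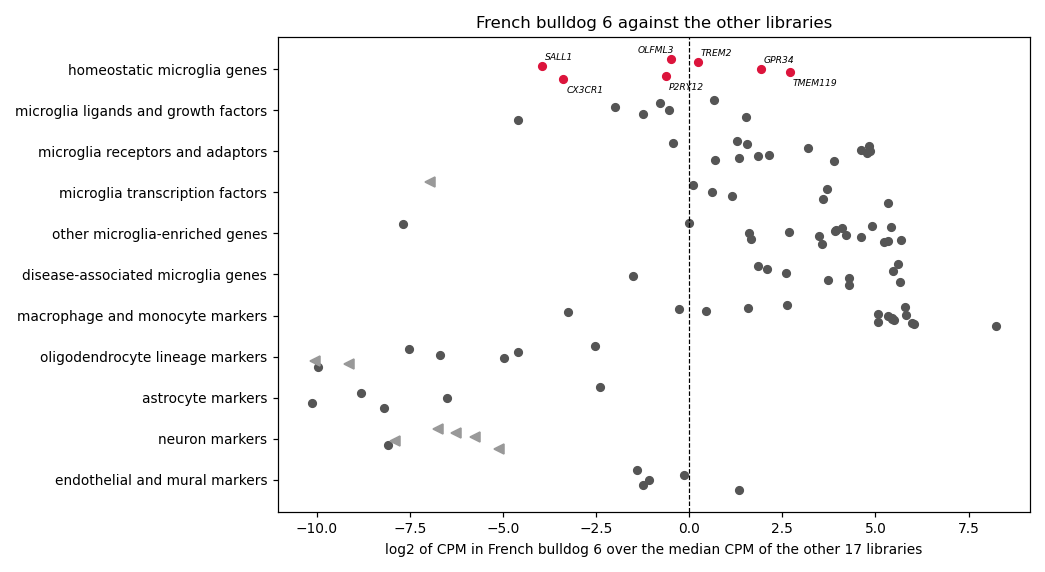
Log2 of the CPM in French bulldog 6 over the median CPM of the other 17 libraries for each gene of the lists that passed the filter, with the 7 microglia genes in red. The T cell genes and P2RY14 are not drawn. Triangles are genes with under 3 counts in French bulldog 6, drawn at the level of 3 counts (0.312 CPM). Macrophage, disease-associated and other microglia-enriched genes lie mostly to the right, tumor and brain cell markers to the left, and the 7 microglia genes on both sides, from SALL1 (0.0648 times the median) to TMEM119 (6.48 times).

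The 10 genes most like the microglia genes also parted in French bulldog 6. It was above all other libraries for 7 of them, against 20.8% of all genes, such as CSF1R, INPP5D (275 CPM against 11.7 to 56.0 CPM) and SAMSN1 (164 CPM against 3.46 to 20.3 CPM), and within their range for 3, ST14 (10.2 CPM), GAL3ST4 (3.02 CPM) and ITGB5 (30.9 CPM). With French bulldog 6 put back, the Spearman correlation of GPR34 with CX3CR1 over 18 libraries was 0.604 and that of P2RY12 was 0.773, given without a test because the library was selected on its CX3CR1 level.

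French bulldogs 2 and 8, which share a case number, had similar levels. CX3CR1 was 14.2 and 19.6 CPM, P2RY12 was 6.36 and 7.84 CPM, GPR34 was 5.69 and 8.45 CPM, SALL1 was 52.5 and 58.5 CPM and TREM2 was 3.35 and 5.29 CPM. French bulldog 8 was the higher of the pair for all of these, and the lower for TMEM119, with 3 counts against 4.

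P2RY12 lies within the gene MED12L, and GPR34 within CASK, in a RefSeq gene table made on UU_Cfam_GSD_1.0, a different assembly from that used for the counts. In the same table P2RY13 lies next to P2RY12, and SALL1 overlaps LOC119870328. The library kit was stranded, but whether the counting used strand is not stated, so reads of a gene and of one that overlaps it may not be told apart. Over the 17 libraries GPR34 had a Spearman correlation of -0.471 with CASK, and P2RY12 had -0.223 with MED12L. In French bulldog 6 MED12L was at 5.83 CPM and CASK at 23.7 CPM, below the 68.2 to 226 CPM and the 65.9 to 282 CPM of the other libraries, while GPR34 was at its highest. P2RY14, a related nucleotide-sugar receptor, had a Spearman correlation of -0.103 with CX3CR1.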

How the data were processed

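RNASeq counts of 18 canine HGO libraries were analysed. Per the labels and the study's methods, the authors used Trimmomatic 0.33 for trimming, HISAT2 2.1.0 for mapping to the dog genome and featureCounts for counting. The deposited values are raw counts per gene, not normalized. The strand setting is not given in the sources used here. Groups were taken from the breed labels. Breeds were compared in edgeR 4.0.16 (R 4.3.3) by the quasi-likelihood F test (TMM, filterByExpr by group, robust dispersions, Benjamini-Hochberg adjustment over 16495 genes, two-sided), and standard errors were derived from the estimate and its F statistic. DESeq2 1.42.0 and limma 3.58.1 were alternatives. Correlations used log2 CPM with a prior count of 2. Scripts were tested on simulated data. The 95% intervals of the breed ratios include the spread between libraries, whereas the floor of 3 counts covers counting error only. The genes and lists were chosen with earlier results of these data known. Named genes were the 7 with a row, the genes of the lists, and the 10 with the highest mean correlation with the 7. Of 9 genes named, 2 had no row under their symbol. Sequences were not used here.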

Additional observations from a re-analysis of the deposited data

How the results depend on the processing

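No microglia gene was called between French bulldogs and the comparison group under any of the 32 alternatives run, with 18 of them leaving out 1 library each, while the number of genes called over the whole table was 58 of 22431 with DESeq2, 1 with edgeR and 0 to 7 with edgeR when 1 library was left out. The direction of small estimates was not stable. The OLFML3 log2 fold change, 0.08 with all libraries, was -0.062 with library totals alone, -0.17 with limma-voom, -0.13 against boxers only and -0.047 against the comparison libraries numbered S18 to S21, and it ran from -0.15 to 0.27 when 1 library was left out. Against the Boston terriers only and against the comparison libraries numbered S1 to S3, the estimates were 0.21 and 0.10 for CX3CR1, 0.17 and 0.25 for P2RY12 and 0.45 and 0.14 for TMEM119. Both of these comparisons include Boston terriers 6 and 7, so they are not separate checks. With 1 library left out, CX3CR1 ran from -0.33 to 0.029 and TMEM119 from -1.03 (without French bulldog 6) to 0.0061 (without boxer 4). The labels name no batch, and the numbers S18 to S21 and S1 to S3 are parts of library names, so an effect of sequencing batch was not tested. The numbers 1 to 7 in the sample titles occur in both groups, but the deviations of same-numbered libraries from their group means correlated between -0.502 and 0.205, so the numbers were not taken to pair the dogs. With a replicate block over these numbers, which leaves out French bulldogs 8 to 11, 0 microglia genes were called, and the estimates were -0.70 for CX3CR1, -0.76 for SALL1, -0.60 for P2RY12 (unadjusted p = 0.0908 from edgeR) and -0.20 for OLFML3. In the same libraries without the block they were -0.28, -0.54, -0.40 and 0.08. The cause of these changes was not tested. The number of microglia genes called with CX3CR1, 2 of 6, was 1 with all 18 libraries, a count that uses the CX3CR1 level by which French bulldog 6 was selected and is not read as a test. It was 1 with French bulldogs 2 and 8 averaged, 1 by either measure with French bulldogs 1 and 4 left out, and 1 to 2 with 1 library left out. It was 0 in the 10 French bulldogs and 0 in the 7 comparison dogs, where fewer libraries were used. The other normalizations, the lower prior count, Pearson's r and centring within the group gave 2. For the correlations, the alternatives that left out single libraries, used the comparison group alone or used Pearson's r with 2 libraries left out were chosen after the data were seen, as was the unblocked comparison of French bulldogs 1 to 7. Over the whole table, 297 genes were called with CX3CR1, and 36 to 421 under the alternatives with 15 or more libraries.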
